A study of Mus musculus with 58 samples.

Results

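Tetraspanins are small membrane proteins with a shared fold of membrane-spanning segments, and 10 of their genes are described here across every group of a study of mouse microglia: Cd63, Cd9, Cd81, Cd82, Cd53, Cd37, Cd151, Tspan3, Tspan4 and Tspan14. The 10 genes were taken by symbol, and all 10 were found in each of the 3 deposited count tables, which list 24940 genes for an age series, 10277 for wild-type mice given antisense oligonucleotides and 10589 for Sgsh knockout mice given them. All 10 also passed the filter on low counts in the age series, and that filter removed no gene of either ASO table. Cd63 and Cd9 lead the set because they were selected on their values in these libraries, which are high in the knockout and were known when the set was chosen, so their levels in the age series are given as a description without a test.

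The study sequenced RNA from microglia, the resident macrophages of the brain, sorted from the forebrain of C57BL/6 mice as living CD11b+ CD45low CX3CR1+ cells. Sgsh encodes a lysosomal enzyme that breaks down heparan sulfate, and its loss causes a lysosomal storage disease, so the first question was how knockout (SgshKO) microglia differ from wild type (WT) with age. The second was what follows when Mitf, Tfeb or Tfe3, a family of transcription factors known for driving lysosomal genes, are lowered with antisense oligonucleotides (ASOs), short synthetic nucleic acids that lead to the breakdown of a matching transcript. The 58 libraries fall into 13 groups. In the age series there were 3 WT and 4 SgshKO libraries at 3 weeks, 2 and 2 at 4 months, and 4 and 7 at 8 months. In the WT ASO set, 4 libraries each came from mice injected once into a brain ventricle with PBS, a non-targeting control ASO, Mitf ASO, Tfeb ASO or Tfe3 ASO, and collected 14 days later. In SgshKO mice 8 libraries had the control ASO and 8 the Mitf and Tfe3 ASOs together, with 4 of each in each of 2 sets that the titles number grp 1 and grp 2. All mice of the last comparison carried the knockout, and no label gives an age for mice that received an ASO. The labels number replicates without naming the animals, so each p-value measures the spread between these libraries.

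Tetraspanins gather partner proteins such as integrins, immunoglobulin-like proteins and proteases into membrane patches known as tetraspanin webs. Cd63 sits mainly in late endosomes, lysosomes and the vesicles inside multivesicular bodies, while Cd9 and Cd81 are mainly at the cell surface, and all 3 are common markers of extracellular vesicles. In macrophages, members of the family act in adhesion, cell fusion, antigen presentation and the shedding of surface proteins.

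Stretches of genome are shown for Cd63, Cd9 and Tspan4 because these members had the largest differences after Mitf ASO, and factors of the Mitf family bind short E-box motifs. They come from the RefSeq promoter table for build GRCm38.p6 (mm10), in which all 10 members were matched to 16 windows of 250 bases before and 50 bases after a transcript start. The Cd63 transcript of the age-series counts lies at chr10:128909345-128912818 on the plus strand, within a RefSeq gene span of chr10:128896231-128912822. Cd9 lies at chr6:125460266-125494760 on the minus strand, and Tspan4 covers chr7:141475236-141493427 on the plus strand. The Cd63 stretch is chr10:128909095-128909344, on the plus strand, directly before the start of its RefSeq promoter entry and within an intron of longer Cd63 transcripts. The Cd9 stretch is chr6:125494792-125495010, on the minus strand, from which the 31 bases next to the start were left out because they are untranslated sequence of another Cd9 transcript. The bases shown lie in an exon of Gm26728 on the opposite strand. The Tspan4 stretch is chr7:141476130-141476379, on the plus strand, before the second of its listed starts and inside a Tspan4 intron. Each is written from 5′ to 3′ on the strand of its gene, with any E-box searched in capitals.
Cd63: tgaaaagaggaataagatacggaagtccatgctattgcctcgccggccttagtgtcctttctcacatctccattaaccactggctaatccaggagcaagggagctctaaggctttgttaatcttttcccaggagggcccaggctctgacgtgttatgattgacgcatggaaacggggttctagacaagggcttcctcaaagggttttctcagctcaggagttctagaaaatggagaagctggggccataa
Cd9: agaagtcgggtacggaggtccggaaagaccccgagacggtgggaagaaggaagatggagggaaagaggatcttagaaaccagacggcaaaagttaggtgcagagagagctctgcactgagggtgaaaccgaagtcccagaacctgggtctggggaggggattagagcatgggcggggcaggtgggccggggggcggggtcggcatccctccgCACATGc
Tspan4: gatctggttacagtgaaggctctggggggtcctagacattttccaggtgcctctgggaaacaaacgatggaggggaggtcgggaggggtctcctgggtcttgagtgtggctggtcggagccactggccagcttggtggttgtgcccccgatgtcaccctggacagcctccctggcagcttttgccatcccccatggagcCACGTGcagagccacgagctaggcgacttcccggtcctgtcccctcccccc

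Motifs were searched on both strands. They were CACGTG, the related CATGTG, and the longer CLEAR-type motif, which is CACGTG with GT before it and AC after it. The capitals in the Cd9 stretch are the CATGTG motif read on the other strand, 38 bases before the start, and those in the Tspan4 stretch are CACGTG, 51 bases before. The windows of the other 7 members held CACGTG once, 228 bases before a Cd37 start, and CATGTG once, 247 bases before the Tspan3 start. Neither is in the Cd63 window, and no member's window holds the longer motif. That Cd63 window does not reach the upstream end of the RefSeq gene, where no search was made. Among all 32851 promoter windows of the same length, 7.15% hold CACGTG, 14.2% hold CATGTG and 0.326% hold the longer motif. These are matches of letters, and no binding was measured.

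Libraries of the age series held 8191508 to 27106584 counts, those of the WT ASO set 14372015 to 30378870 and those of the SgshKO ASO set 12517838 to 30431437. Levels are given as CPM, the counts of a gene scaled to the size of its library, which compare a gene between libraries of the same table. Each ASO lowered its target in WT, by 4.81 for Mitf, 3.24 for Tfeb and 2.38 for Tfe3 on the log2 scale, and the combination in SgshKO lowered Mitf by 2.26 and Tfe3 by 1.08 (edgeR quasi-likelihood adjusted p = 8.37e-15, 5.8e-15, 1.36e-15, 2.19e-09 and 2.19e-09). Sgsh transcript was still detected in SgshKO libraries, at 20.1 to 34.7 CPM against 31.9 to 59.2 CPM in WT at 8 months, so it does not check the genotype labels. The 7 microglial markers summed to 37869 to 45469 CPM in WT and 29748 to 33120 CPM in SgshKO at 8 months, and all 7 were detected. Markers of neutrophils and monocytes moved with genotype. Their 8 genes summed to 7.04 to 34.0 CPM in all WT libraries and in SgshKO at 3 weeks, but to 2795 and 13830 CPM in SgshKO at 4 months and 408 to 5384 CPM at 8 months. Those of border macrophages were at 15.8 to 32.1 CPM in WT and 56.3 to 105 CPM in SgshKO at 8 months, and astrocyte markers at 1.99 to 5.20 and 10.7 to 18.7 CPM. Dissociation response genes were higher in WT (14574 and 18859 CPM) than SgshKO (9672 and 10891 CPM) at 4 months, and at 8 months they were at 5670 to 7218 CPM in WT and 2773 to 5007 CPM in SgshKO. At that age platelet and megakaryocyte markers, of which Ppbp was at 0 in every library, were at 24.1 to 40.8 CPM in WT and 1.92 to 8.42 CPM in SgshKO, and endothelial markers at 61.0 to 69.0 and 35.3 to 54.3 CPM. At 4 months the 7 microglial markers summed to 41155 and 45971 CPM in WT and 27377 and 31556 CPM in SgshKO. Border macrophage markers were then at 9.34 and 10.3 CPM in WT and 68.1 and 121 CPM in SgshKO. At 3 weeks, dissociation response genes were at 2925 to 4814 CPM in WT and 2547 to 15585 CPM in SgshKO, highest in replicate 1. Platelet and megakaryocyte markers were then at 32.7 to 35.6 CPM in WT and 9.79 to 12.6 CPM in SgshKO. Endothelial markers were at 58.2 to 73.3 and 46.4 to 53.4 CPM, and the microglial markers at 50249 to 51558 and 44866 to 48136 CPM. The part of the other cells and of the dissociation response in the results at any age was not tested. More Xist than Ddx3y was found in 3 of 3 WT and 4 of 4 SgshKO libraries at 3 weeks, 1 of 2 and 1 of 2 at 4 months, and 0 of 4 and 3 of 7 at 8 months, so age and sex cannot be told apart in WT. In bulk libraries, a change in the make-up of the cells and a change of RNA per cell cannot be told apart.

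Cd63, the endosomal and lysosomal tetraspanin, was the member with the widest gap between genotypes at each age. At 3 weeks it stood at 45.1, 38.8 and 34.7 CPM in WT and at 92.0, 146, 147 and 129 CPM in SgshKO. At 4 months the WT libraries had 36.0 and 38.3 CPM and the SgshKO libraries 178 and 192 CPM. At 8 months the 4 WT libraries had 38.1, 32.1, 42.7 and 47.9 CPM, and the 7 SgshKO libraries had a lowest value of 188, a median of 254 and a highest of 277 CPM. The genotypes did not overlap at any age, and WT stayed within 32.1 to 47.9 CPM throughout. The log2 difference was 1.70 ± 0.16 (SE) at 3 weeks, 2.31 ± 0.21 at 4 months and 2.65 ± 0.14 at 8 months, which are 3.24-fold, 4.96-fold and 6.26-fold. The difference at 8 months exceeded that at 3 weeks by 0.95 on the log2 scale.

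Cd9, a surface tetraspanin that binds integrins and immunoglobulin-like partners, showed the next widest gap, from a higher level in WT. At 3 weeks the WT libraries had 345, 326 and 368 CPM and the SgshKO libraries 732, 654, 634 and 717 CPM. At 4 months they had 430.3 and 363 CPM against 944 and 948 CPM. At 8 months WT had 321, 276, 317 and 278 CPM, and SgshKO ran from 784 through a median of 1252 to 1333 CPM. Every SgshKO library was above every WT library, including replicate 2 at 8 months, the lowest of its 7. The log2 difference was 0.98 ± 0.13 (SE) at 3 weeks, 1.25 ± 0.16 at 4 months and 1.97 ± 0.11 at 8 months, or 1.98-fold, 2.38-fold and 3.91-fold. Its difference at 8 months exceeded that at 3 weeks by 0.99, and that at 4 months by 0.71.

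**Figure D1:**
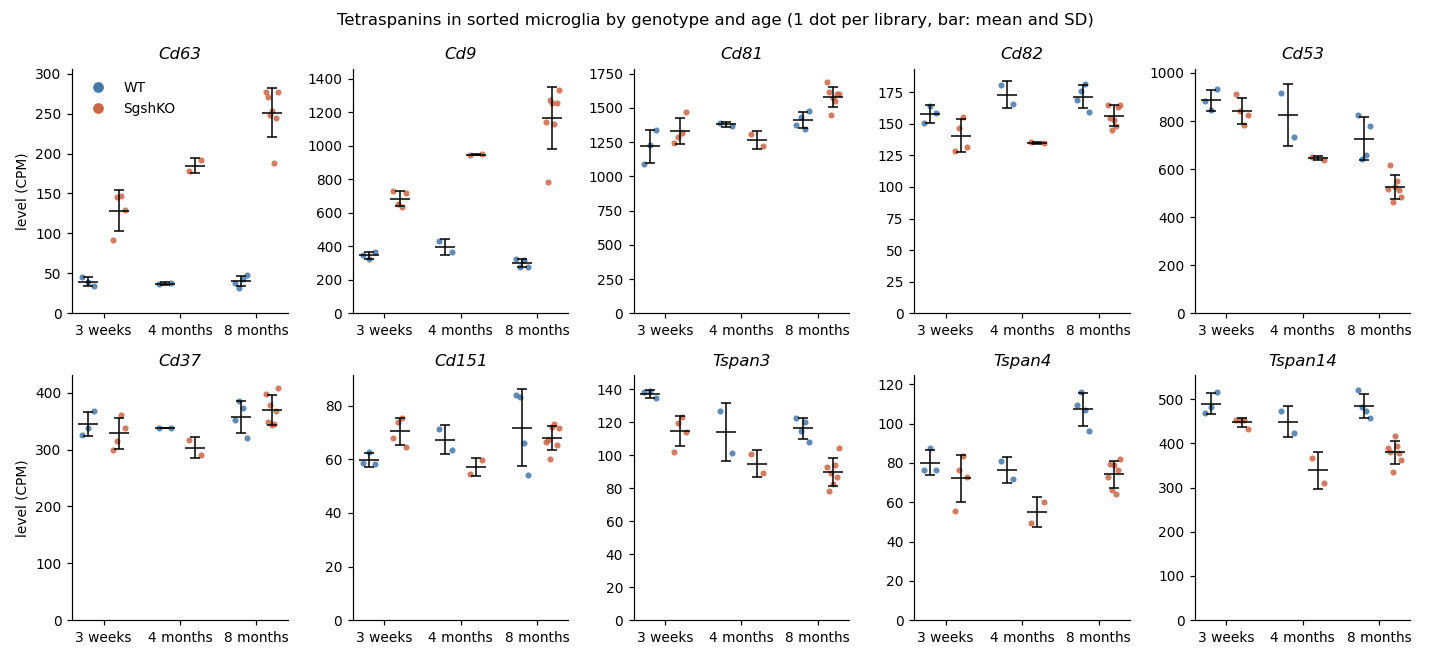
Level in CPM of the 10 tetraspanins (linear axis from 0 in each panel) in WT and SgshKO microglia at 3 weeks, 4 months and 8 months, with 1 point per library and bars for the mean and SD of each group. Cd63 in SgshKO rises from 92.0 to 147 CPM at 3 weeks to 188 to 277 CPM at 8 months, while all 9 WT libraries stay between 32.1 and 47.9 CPM.

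The 4 SgshKO libraries above 1000 CPM of neutrophil and monocyte markers are called neutrophil-rich from here on. They are both libraries of 4 months and replicates 1 and 3 of 8 months. No genotype comparison at 4 months could therefore be run without them. With these 4 left out, an alternative chosen after seeing the data, the 8-month log2 difference was 2.61 for Cd63 and 1.94 for Cd9. It was 2.65 and 1.97 with all libraries. The SgshKO libraries kept at 8 months still held 408 to 746 CPM of neutrophil and monocyte markers, against 11.2 to 13.3 CPM in WT. This alternative therefore lowered the markers without removing them. Border macrophage markers were at 54.8 to 75.8 CPM in WT and 82.2 to 109 CPM in SgshKO at 3 weeks, and their part in the result was not tested.

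Of the 8 other members, 0 passed the threshold (edgeR's quasi-likelihood test, Benjamini-Hochberg adjusted p under 0.05) between genotypes at 3 weeks, where 9.03% of the 14309 genes tested did. DESeq2 called 1 of the 8, Tspan3, and 1602 of the 12341 genes it tested. With edgeR 2 of the 8 were under an unadjusted p of 0.05, as were 19.14% of all genes. At 4 months 3 of the 8 fell in SgshKO (Cd82, Tspan4 and Tspan14), against 9.26% of all genes that fell, 10.3% that rose and 19.5% that changed either way. At 8 months 1 rose (Cd81) and 4 fell (Cd53, Tspan3, Tspan4 and Tspan14). The share of all genes called at that age was 40.5% in either direction, 21.6% higher and 18.9% lower. Over these 8 members the median log2 difference was -0.10, -0.31 and -0.24 at the 3 ages, beside -0.02, 0.02 and 0.02 over all genes. At 3 weeks 3 of the 8 (Cd151, Tspan3 and Tspan14) had genotypes that did not overlap, where 22.5% of all genes did so. At 4 months 8 of 8 did not overlap, with 58.1% of all genes alike in these groups of 2, and at 8 months 4 of 8 did not (Cd53, Tspan3, Tspan4 and Tspan14), against 25.2%.

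Cd81, a surface tetraspanin and a common extracellular vesicle marker, was the most abundant member and moved little. Its WT values were 1092, 1228 and 1336 CPM at 3 weeks, 1392 and 1369 CPM at 4 months, and 1373, 1437, 1349 and 1476 CPM at 8 months. SgshKO had 1247, 1290, 1315 and 1470 CPM at 3 weeks, 1311 and 1221 CPM at 4 months, and 1445 to 1689 CPM with a median of 1599 at 8 months. The genotypes overlapped at 3 weeks and at 8 months, and at 4 months both SgshKO libraries lay below both WT libraries. The log2 difference was 0.13 at 3 weeks (adjusted p = 0.412), -0.12 at 4 months (adjusted p = 0.426) and 0.17 ± 0.06 (SE) at 8 months (adjusted p = 0.0361). The 8-month call was lost without any 1 of the 4 libraries of 4 months, any 1 of the 4 WT libraries of 8 months, or SgshKO replicate 1, 2, 6 or 7 of 8 months (0.13 to 0.17, highest adjusted p = 0.116), and without the 4 neutrophil-rich libraries together (0.16, adjusted p = 0.0653). It was also lost with no filter on low counts (adjusted p = 0.117), with a replicate block (0.11) and with the balance of Ddx3y and Xist as a covariate (0.0554). In the deposited TPM values the difference was 0.02 (limma adjusted p = 0.787). The median difference over all genes at that age was -0.14 on log2(TPM + 1), against 0.02 on counts.

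Cd82, first described as a suppressor of metastasis and present on late endosomes and the surface, was lower in SgshKO at 4 months. WT had 180 and 165 CPM at that age against 135 and 134 CPM, a log2 difference of -0.36 ± 0.10 (SE, adjusted p = 0.0161). At 3 weeks the WT libraries had 151, 164 and 158 CPM and SgshKO 128, 147, 156 and 132 CPM (adjusted p = 0.244), and at 8 months the ranges were 159.7 to 181 CPM and 145 to 165 CPM (adjusted p = 0.0976). The groups overlapped at both of these ages, and the genotype difference of Cd82 changed from 3 weeks to 8 months by 0.03, with an interval of -0.18 to 0.24. The 4-month call did not hold without WT replicate 1 (-0.28, adjusted p = 0.176) or with SgshKO replicate 2 left out (-0.40, adjusted p = 0.0507), nor with no filter on low counts (-0.35, adjusted p = 0.0553).

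Cd53 and Cd37 are the members largely restricted to blood cell lineages. Cd53 stood at 883, 845 and 932 CPM in WT at 3 weeks and 912, 841, 782 and 827 CPM in SgshKO, which overlapped. At 4 months WT had 917 and 735 CPM and SgshKO 652 and 639 CPM (-0.36, adjusted p = 0.0611). At 8 months the WT values were 824, 642, 657 and 778 CPM, and SgshKO ran from 462 to 616 CPM with a median of 518, wholly below WT. The 8-month log2 difference was -0.47 ± 0.08 (SE, adjusted p = 5.32e-05). It was -0.44, still called, without the 4 neutrophil-rich libraries, a fit that left 408 CPM or more of such markers in SgshKO. From 3 weeks to 8 months the genotype difference of Cd53 moved by -0.39, which edgeR did not call (adjusted p = 0.0586) and DESeq2 did. Cd37 stayed at 320.0 to 385 CPM in WT and 289.8 to 407 CPM in SgshKO over all ages, and its differences of -0.07, -0.16 and 0.05 were not called (adjusted p = 0.765, 0.36 and 0.621). The 95% interval at 8 months was -0.10 to 0.19. Cd37 overlaps Tead2 in the annotation, and the counting strand is not given in the sources used here. Reads of the pair therefore cannot be told apart where they overlap. The same limit holds for Cd9, Cd81, Cd82 and Cd151, which overlap other annotated genes, none of them protein-coding.

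Tspan14, a member of the group that carries the protease ADAM10 to the surface, was lower in SgshKO. The WT libraries had 469.9, 483 and 516 CPM at 3 weeks, 474 and 424 CPM at 4 months, and 521, 483, 474 and 457 CPM at 8 months. SgshKO had 452, 454, 453 and 433 CPM at 3 weeks, 368 and 309.9 CPM at 4 months, and 335 to 416 CPM with a median of 380.4 at 8 months. The genotypes were apart at each age, and the gap was -0.13 at 3 weeks (adjusted p = 0.428), -0.41 ± 0.11 (SE) at 4 months (adjusted p = 0.00741) and -0.35 ± 0.07 at 8 months (adjusted p = 0.000118). The 8-month call of Tspan14 was kept under every alternative run, and the 4-month call did not hold when WT replicate 1 (adjusted p = 0.123) or SgshKO replicate 2 (adjusted p = 0.0838) was left out. Adam10 itself was lower by 0.40 on the log2 scale at 8 months (adjusted p = 0.000424).

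Tspan3, a broadly expressed member, had 138, 139 and 134 CPM in WT at 3 weeks and 102, 119.8, 123 and 114 CPM in SgshKO. It had 127 and 102 CPM against 101 and 89.0 CPM at 4 months. At 8 months WT had 122, 115, 119.9 and 108 CPM and SgshKO ran from 78.6 to 104 CPM with a median of 89.0. The genotypes did not overlap at any age, and the log2 difference was -0.26 ± 0.10 (SE) at 3 weeks and -0.27 ± 0.13 at 4 months, neither called (adjusted p = 0.0994 and 0.153). At 8 months it was -0.37 ± 0.08 (adjusted p = 0.000394).

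Tspan4, known as a marker of migrasomes, the vesicles that form on retraction fibres of moving cells, was the member called between 3 weeks and 8 months in WT. Its WT values were 76.7, 87.6 and 76.3 CPM at 3 weeks, 81.2 and 71.8 CPM at 4 months, and 109, 116, 107 and 96.5 CPM at 8 months. SgshKO had 55.7, 76.6, 83.3 and 72.8 CPM at 3 weeks, 49.5 and 60.3 CPM at 4 months, and 64.2 to 82.2 CPM with a median of 76.5 at 8 months. All 4 WT libraries at 8 months were above all other libraries of the age series. The genotype difference was -0.16 at 3 weeks (adjusted p = 0.546), -0.47 ± 0.16 (SE) at 4 months (adjusted p = 0.0344) and -0.53 ± 0.09 at 8 months (adjusted p = 6.77e-05). The change of that difference from 3 weeks to 8 months was -0.38 (adjusted p = 0.131). The 4-month call was lost without WT replicate 1, WT replicate 2 or SgshKO replicate 1 (adjusted p = 0.252, 0.0799 and 0.175), and Tspan4 overlaps Chid1 in the annotation.

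Cd151, a partner of laminin-binding integrins, was the least abundant member on the TPM scale in each of the 6 age-series groups and was not called at any age. At 3 weeks WT had 58.6, 62.9 and 58.2 CPM and SgshKO 67.8, 73.8, 75.6 and 64.7 CPM, which did not overlap. At 4 months the order was turned, with 71.2 and 63.5 CPM in WT and 54.6 and 59.6 CPM in SgshKO, and at 8 months WT spread from 54.2 to 83.9 CPM around the SgshKO range of 60.2 to 73.3 CPM. The log2 differences were 0.23 ± 0.12 (SE), -0.24 ± 0.15 and -0.08 ± 0.09 (adjusted p = 0.277, 0.321 and 0.526). Cd151 lies 3755 bp before Tspan4 on the same strand.

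**Figure D2:**
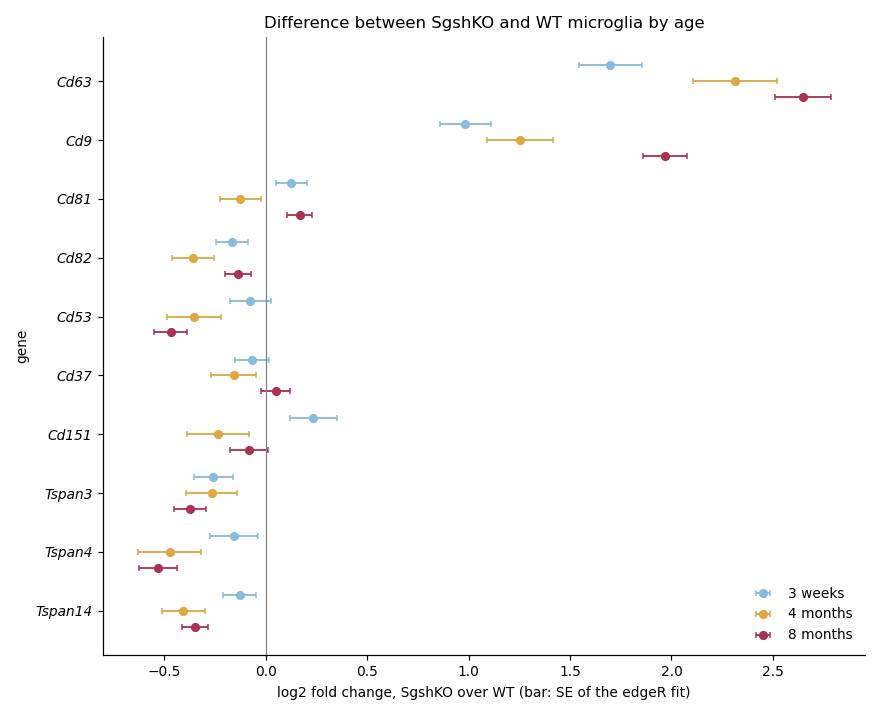
Log2 difference of SgshKO minus WT for each of the 10 tetraspanins at 3 weeks, 4 months and 8 months, with bars of 1 standard error. Cd63 and Cd9 lie well above 0 at each age, and Cd53, Tspan3, Tspan4 and Tspan14 lie between -0.35 and -0.53 at 8 months.

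Ages were also compared within each genotype. In SgshKO from 3 weeks to 8 months, Cd63 and Cd9 were higher by 0.97 and 0.77 on the log2 scale, while in WT their values were 0.02 and -0.22. Among the 8 others Cd81 rose in SgshKO (0.25 ± 0.06, SE, adjusted p = 0.00371), and Cd53 (-0.68 ± 0.08, adjusted p = 6.33e-07), Tspan3 (-0.35 ± 0.08, adjusted p = 0.00113) and Tspan14 (-0.24 ± 0.07, adjusted p = 0.00705) fell, where 30.6% of all genes were called, 15.5% higher and 15.1% lower. Of these 4, Cd53 and Tspan14 had ages that did not overlap, and 19.9% of all genes did so. In WT, 1 of the 10 was called, where 7.65% of all genes were and 3.02% rose. That was Tspan4 (0.42 ± 0.12, adjusted p = 0.027), whose call was lost without WT replicate 1 or 3 at 3 weeks (adjusted p = 0.104 and 0.116), without WT replicate 2 at 8 months (0.0765) or with the balance of Ddx3y and Xist as a covariate (0.143). In WT the ages also did not overlap for Cd81, Cd9, Cd53 and Tspan3, where 20.4% of all genes did not. The test of the difference between genotypes called 0 of the 8 from 3 weeks to 8 months by edgeR, where 9.25% of all genes were called. At an unadjusted p under 0.05 there were 4 of 8, beside 22.27% of all genes. DESeq2 called 1 of the 8, Cd53, and 1702 of the 14005 genes it tested. From 3 weeks to 4 months and from 4 to 8 months edgeR and DESeq2 both called 0 of the 8. Over all genes edgeR called 2.52% and 0.391%, and DESeq2 called 692 of 13450 and 168 of 12618. Under an unadjusted p of 0.05 were 2 and 1 of the 8, beside 16.16% and 11.47% of all genes.

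Levels of different genes were compared on the deposited TPM scale, which divides by transcript length. In WT at 8 months the order was Cd81 (1462 ± 75.0 TPM, SD, n = 4), Cd37 (459.6 ± 30.7), Cd53 (407 ± 52.8), Cd9 (393 ± 30.9), Tspan14 (302 ± 14.2), Cd82 (156 ± 6.41), Tspan4 (127 ± 7.46), Tspan3 (106 ± 4.84), Cd63 (66.2 ± 12.8) and Cd151 (61.5 ± 11.6). Cd53 and Cd9 lay closer together than the SD of either, as did Cd63 and Cd151, and every other pair of neighbours lay further apart than the smaller of their SDs. In SgshKO at 8 months Cd9 was at place 2 and Cd63 at place 4. Cd9 had 1387 ± 191 TPM (SD, n = 7), within 1 SD of Cd81 at 1487 ± 85.8 TPM, and Cd63 had 369.5 ± 49.0 TPM, between Cd37 at 430.3 ± 23.2 TPM and Cd53 at 267 ± 32.3 TPM. Among all genes with a TPM above 0, Cd63 stood at place 1432 of 16915 in WT and 146 of 18065 in SgshKO at 8 months, and Cd9 at place 135 and 38. The TPM table and the counts rest on different transcripts for Cd63, Cd82, Cd151, Tspan4 and Tspan14.

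The genes whose log2 CPM followed Cd63 most closely over the 22 age-series libraries were Sirt2 (Pearson r = 0.986), Npc2 (0.984), Akr1a1 (0.977), Ctsb (0.976) and Anapc15 (0.974). Npc2 is a lysosomal cholesterol carrier and Ctsb a lysosomal protease. For Cd9 they were Anxa4 (0.989), Tpi1 (0.980), Aldoa (0.979), Pld3 (0.978) and Cadm1 (0.978), among which Tpi1 and Aldoa are enzymes of glycolysis. Cd63 and Cd9 had an r of 0.952 with each other, and Cd9 was at place 71 among the genes most like Cd63. These libraries share the genotype and age groups, so the coefficients describe that shared pattern and carry no test.

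Among 21 other tetraspanin genes listed, 14 were tested in the age series. At 3 weeks 1 rose and 2 fell in SgshKO, at 4 months 4 rose and 4 fell, and at 8 months 6 rose and 4 fell, where 9.03%, 19.5% and 40.5% of all genes changed in either direction, with a median of 0.17 at 8 months against 0.02 over all genes. Upk1b, a uroplakin, had 55.2 to 82.9 CPM in WT and 6.86 to 23.4 CPM in SgshKO at 8 months, a log2 difference of -2.11 ± 0.21 (SE, adjusted p = 1.89e-08). Tspan7 had 154 to 214 CPM in WT and 277 to 334 CPM in SgshKO (0.79 ± 0.08, adjusted p = 1.27e-08), and neither of these pairs of groups overlapped. Tspan33, of the ADAM10-binding group with Tspan14, fell by 0.70 on the log2 scale (adjusted p = 1.3e-05), and Tspan32 rose by 0.89 (adjusted p = 0.00236). Tspan17, of the same ADAM10-binding group, had 14 counts over the 4 WT libraries, of which 3 had none, and 780 over the 7 SgshKO libraries. Tspan2 had 1 count in WT and 162 in SgshKO at 8 months, and over the series its highest counts were 152, 71, 63 and 24, in the 4 neutrophil-rich libraries.

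Genes of tetraspanin partners and of multivesicular bodies formed a list of 30, of which 28 were tested. At 3 weeks 7 rose and 1 fell in SgshKO, at 4 months 10 rose and 1 fell, and at 8 months 15 rose and 4 fell, beside the same 9.03%, 19.5% and 40.5% of all genes, with a median of 0.33 at 8 months against 0.02 over all genes. The widest differences at 8 months were those of Cd44, a hyaluronan receptor (4.44), Itga4, an integrin subunit (4.06), Sdc4, a heparan sulfate proteoglycan (1.58), and Ptgfrn, a direct partner of Cd9 and Cd81 (1.40). Cd44 had 0.66 to 1.46 CPM in WT and 13.01 to 48.8 CPM in SgshKO, and Ptgfrn 50.1 to 71.5 CPM and 128 to 189.8 CPM. Lamp1, a lysosomal membrane protein, was higher by 1.14. Neutrophils and monocytes also express Cd44 and Itga4, and the part of such cells in these values was not tested.

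In the WT ASO libraries no member was called between the control ASO and PBS, where edgeR called 0 of 10277 genes (415 had an unadjusted p under 0.05 and DESeq2 called 2). Cd63 had 146, 125, 134 and 123 CPM with PBS and 178, 158, 188 and 121 CPM with the control ASO, a log2 difference of 0.27 ± 0.08 (SE) with an adjusted p of 1 and an unadjusted p of 0.00443, the 1 of the 10 under 0.05. The other 9 lay between -0.06 and 0.10. The comparisons below of each ASO with the control ASO share those 4 control libraries. Earlier results of these data were known when the members were chosen. The p-values of Cd63 and Cd9 in both ASO sets, and the counts that include them, are therefore not those of genes picked beforehand.

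After Mitf ASO, Cd63 rose to 364, 323, 322 and 255 CPM, above every control ASO library, by 0.98 ± 0.08 (SE) on the log2 scale or 1.97-fold (edgeR adjusted p = 6.28e-07). With Tfeb ASO it had 243, 173, 172 and 166 CPM (0.23, adjusted p = 0.216). With Tfe3 ASO it had 203, 196, 221 and 158 CPM (0.28, adjusted p = 0.0977), and both overlapped the control. The unadjusted edgeR p was 0.0128 and 0.00361 in turn, and DESeq2 called Cd63 with Tfe3 ASO but not with Tfeb ASO. The difference between Mitf and Tfeb ASO was 0.75 ± 0.08 (adjusted p = 7.73e-05), and that between Mitf and Tfe3 ASO 0.70 ± 0.08 (adjusted p = 3.79e-05), and no library overlapped in either. The 7 microglial markers summed to 60471 to 63984 CPM with the control ASO and 57045 to 59433 CPM with Mitf ASO. The 1 platelet and megakaryocyte marker listed (Gp9) was at 27.6 to 31.2 and 17.8 to 22.01 CPM, and the 1 lymphocyte marker listed (Cd79b) at 20.6 to 29.6 and 15.9 to 20.1 CPM. Their part in the result was not tested. Cd63 in Tfeb and Tfe3 ASO differed by -0.05, with an interval of -0.22 to 0.13.

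Cd9 rose with 2 of the 3 ASOs. The control ASO libraries had 879, 667, 929 and 749.7 CPM, those with Mitf ASO 1160, 1044, 1153 and 1015 CPM, and those with Tfe3 ASO 1277, 1116, 1288 and 1084 CPM. All 8 treated libraries lay above all 4 controls, with log2 differences of 0.45 ± 0.07 (SE, adjusted p = 0.000682) and 0.57 ± 0.07 (adjusted p = 0.000272). Tfeb ASO gave 999, 754, 809.7 and 834 CPM, which overlapped the control (0.08, adjusted p = 0.625). Cd9 was higher with Mitf than Tfeb ASO by 0.36 (adjusted p = 0.00946) and lower with Tfeb than Tfe3 ASO by -0.49 (adjusted p = 0.00182), and Mitf and Tfe3 ASO differed by -0.12 with an interval of -0.28 to 0.03 (adjusted p = 0.451). Both of these calls between ASOs were lost without the grp number in the fit (adjusted p = 0.248 and 0.101).

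**Figure D3:**
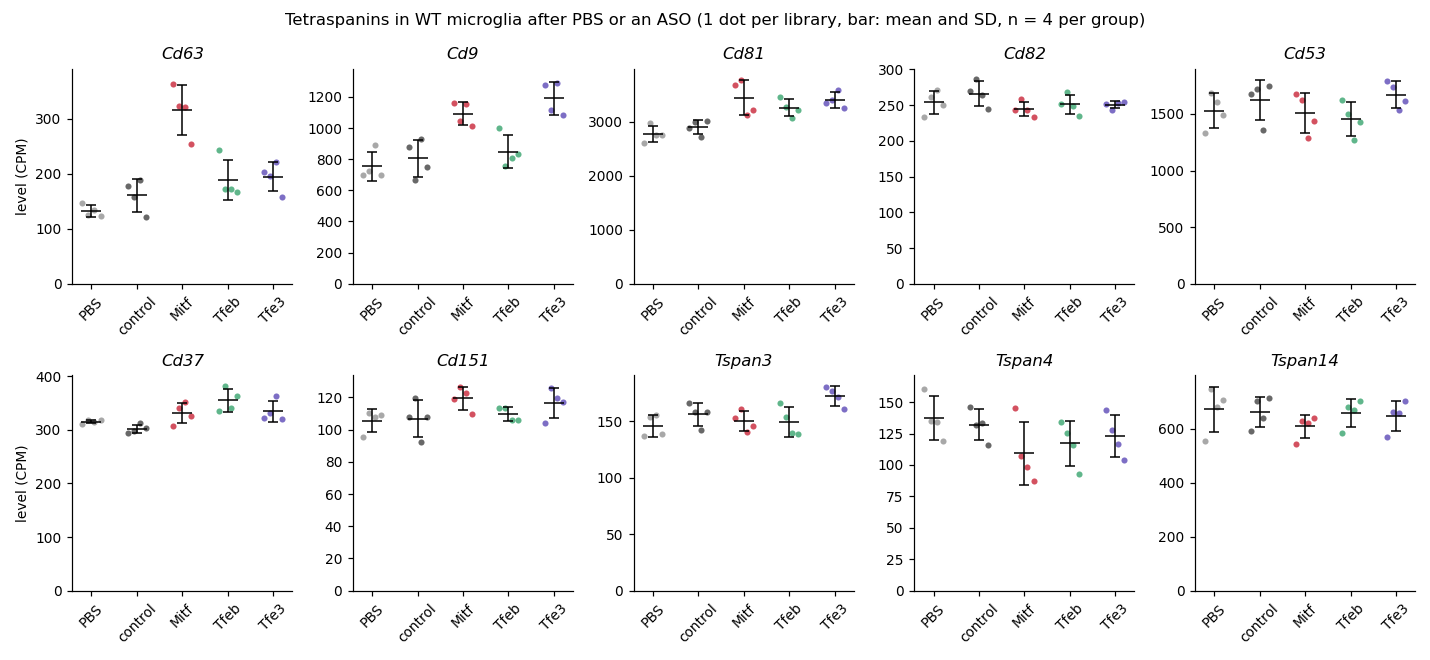
Level in CPM of the 10 tetraspanins in the WT ASO libraries, on linear axes from 0, with 1 point per library and bars for the mean and SD of each treatment of 4. Cd63 stands at 255 to 364 CPM with Mitf ASO against 121 to 188 CPM with the control ASO, and Cd9 at 1015 CPM and above with Mitf or Tfe3 ASO.

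Over the 10 members, Mitf ASO raised 3 (Cd63, Cd9 and Cd81) and lowered 1 (Tspan4), where 11.0% of all genes were called, 5.77% higher and 5.21% lower. Tfeb ASO raised 1, Cd37, where 0.778% were called and 0.564% rose. Tfe3 ASO raised 2, Cd9 and Cd81, where 2.16% were called and 1.46% rose. Besides these, DESeq2 called Cd37 with Mitf ASO and Cd63 with Tfe3 ASO, where it called 1319 and 403 of 10277 genes in turn. Groups did not overlap for 3 members with Mitf ASO (7.67% of all genes), 2 with Tfeb ASO (4.07%) and 3 with Tfe3 ASO (4.68%). Between ASOs, Cd63 and Cd9 were called as higher for Mitf against Tfeb ASO (3.53% of all genes, 1.67% higher), Cd63 as higher for Mitf against Tfe3 ASO (3.76%, 2.63% higher) and Cd9 as lower for Tfeb against Tfe3 ASO (1.62%, 0.555% lower). In these 3 comparisons the groups of the members called did not overlap, as for 4.07%, 5.53% and 4.43% of all genes.

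Cd81 had 2889, 2992, 2714 and 3016 CPM with the control ASO. It had 3688, 3769, 3128 and 3218 CPM with Mitf ASO (0.25 ± 0.06, SE, adjusted p = 0.00735), 3355, 3413, 3590 and 3248 CPM with Tfe3 ASO (0.23 ± 0.06, adjusted p = 0.0346) and 3463, 3271, 3080 and 3217 CPM with Tfeb ASO (0.17 ± 0.06, adjusted p = 0.185). Each treated library was above every control library, so that Tfeb ASO moved the same way without passing the threshold, and Cd81 differed between ASOs by 0.02 to 0.08 in size. The call with Tfe3 ASO was lost without any 1 of the 4 Tfe3 ASO libraries or without control ASO replicate 1, 2 or 3 (0.18 to 0.26, highest adjusted p = 0.166). Without the grp number in the fit, the calls of Cd81 with Mitf and Tfe3 ASO were lost (adjusted p = 0.0504 and 0.242).

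Tspan4 had 146, 132, 134 and 116 CPM with the control ASO and 145, 107, 98.1 and 87.6 CPM with Mitf ASO. These groups overlapped, and the difference of -0.29 ± 0.06 (SE, adjusted p = 0.00535) was taken within grp numbers, with an adjusted p of 0.436 without them. Cd37 had 295, 297, 312 and 303 CPM with the control ASO and 335, 382, 341 and 363 CPM with Tfeb ASO, wholly above it (0.23 ± 0.05, adjusted p = 0.0237). That call was lost without any 1 of the 4 control ASO libraries, Tfeb ASO replicate 1, 2 or 4, Mitf ASO replicate 1, 2 or 3, or Tfe3 ASO replicate 1, 2 or 4 (0.19 to 0.24, highest adjusted p = 0.188), and without the grp number (adjusted p = 0.199). With Mitf and Tfe3 ASO Cd37 was at 307 to 352 CPM and 320.5 to 363 CPM (edgeR adjusted p = 0.0752 and 0.116). DESeq2 called the difference with Mitf ASO.

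Cd82, Cd53, Cd151, Tspan3 and Tspan14 were called with none of the 3 ASOs. Their log2 differences from the control ASO lay between -0.16 for Cd53 with Tfeb ASO and 0.16 for Cd151 with Mitf ASO. Cd82 stayed between 233 and 287 CPM in all 20 libraries. Tspan3 with Tfe3 ASO had 181, 177, 171 and 161 CPM against 167, 158, 142 and 158 CPM in the control (0.14, adjusted p = 0.23), and was higher there than with Mitf or Tfeb ASO by 0.20 and 0.21, which DESeq2 called and edgeR did not (adjusted p = 0.0647 and 0.0803).

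**Figure D4:**
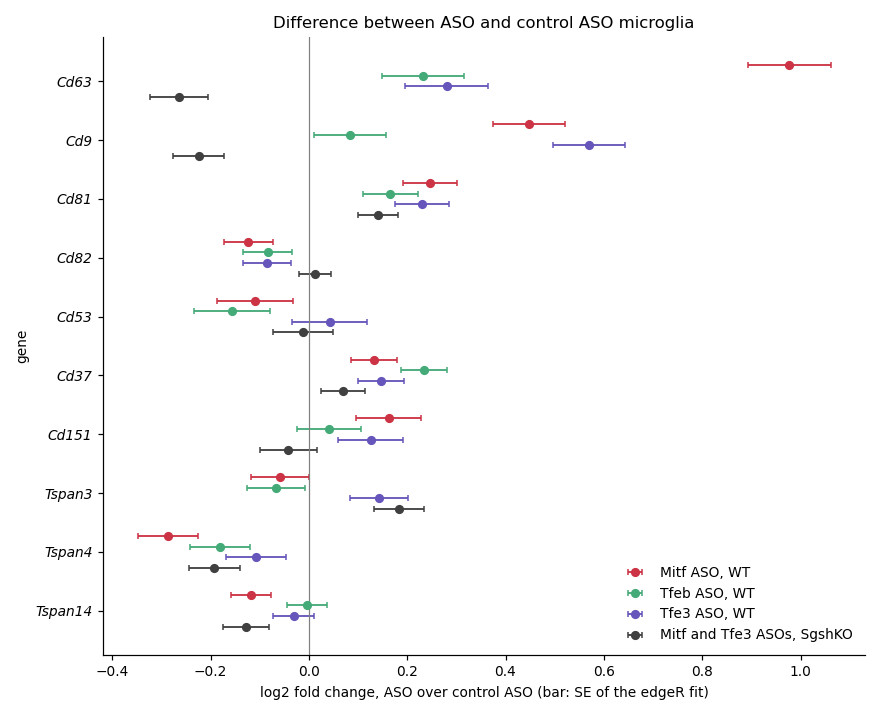
Log2 differences of the 10 tetraspanins after each ASO, with bars of 1 standard error: Mitf, Tfeb and Tfe3 ASO minus control ASO in WT, and Mitf plus Tfe3 ASO minus control ASO in SgshKO. The 3 WT comparisons share their 4 control libraries. Cd63 is at 0.98 with Mitf ASO in WT and at -0.27 with the combination in SgshKO.

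In SgshKO microglia Cd63 and Cd9 were lower with the Mitf and Tfe3 ASOs together than with the control ASO. Cd63 ran from 427 to 566 CPM with a median of 491 in the 8 control libraries and from 351 to 461 CPM with a median of 415.5 in the 8 treated libraries. The groups overlapped, and the log2 difference was -0.27 ± 0.06 (SE, adjusted p = 0.0105). By grp, its means were 519 and 425.5 CPM in grp 1 and 465 and 392 CPM in grp 2, for control and treated in turn. Cd9 ran from 1462 to 1831 CPM (median 1596) in the control and from 1219 to 1565 CPM (median 1370) in the treated libraries, again with overlap (-0.22 ± 0.05, adjusted p = 0.0123). Its means were 1718 and 1414 CPM in grp 1 and 1526 and 1357 CPM in grp 2. In grp 1 the 6 neutrophil and monocyte markers listed summed to 4.96 to 7.03 CPM in the control and 4.14 to 40.8 CPM in the treated libraries. In grp 2 they summed to 70.0 to 520.5 and 75.7 to 332 CPM. The 1 border macrophage marker listed was at 116 to 149.7 and 155 to 182.1 CPM in grp 1, which did not overlap. Its values in grp 2 were 157 to 182.8 and 182.1 to 194.5 CPM. Their part in the result was not tested. With grp 1 alone the differences of Cd63 and Cd9 were -0.27 and -0.26 (adjusted p = 0.128 and 0.118) and with grp 2 alone -0.26 and -0.18 (adjusted p = 0.0424 and 0.0561). The WT and SgshKO ASO libraries are in tables normalized apart, the WT set has no combination, and a difference between the 2 genotypes in the response was not tested.

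Of the 10 members, 2 rose (Cd81 and Tspan3) and 3 fell (Cd63, Cd9 and Tspan4) with the combination, where 9.33% of all genes were called, 4.84% higher and 4.50% lower. No member's groups were apart in all 16 libraries, as was the case for 1.06% of all genes. Cd81 had 2319 to 3039 CPM (median 2566) in the control and 2635 to 3507 CPM (median 2860.0) with the combination (0.14 ± 0.04, SE, adjusted p = 0.0397). Tspan3 had 117 to 169 CPM (median 141) and 152 to 174 CPM (median 161), a difference of 0.18 ± 0.05 (adjusted p = 0.0307). Tspan4 had 89.7 to 125 CPM (median 98.3) and 72.3 to 111 CPM (median 84.9), a difference of -0.19 ± 0.05 (adjusted p = 0.0246), and within grp 2 its 4 treated libraries (72.3 to 80.3 CPM) were all below its 4 controls (89.7 to 94.9 CPM). These 3 calls were lost when the grp number was left out (adjusted p = 0.288, 0.111 and 0.299), and with the replicate number added as a block beside grp the Tspan3 call was lost too (0.19, adjusted p = 0.0562). Leaving out 1 library ended the Cd81 call in 11 of 16 fits and the Tspan3 and Tspan4 calls in 4 each, with adjusted p up to 0.0787, 0.0575 and 0.0718. Cd82, Cd53, Cd37, Cd151 and Tspan14 were not called, with differences from -0.13 for Tspan14 (adjusted p = 0.0857) to 0.07 for Cd37.

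**Figure D5:**
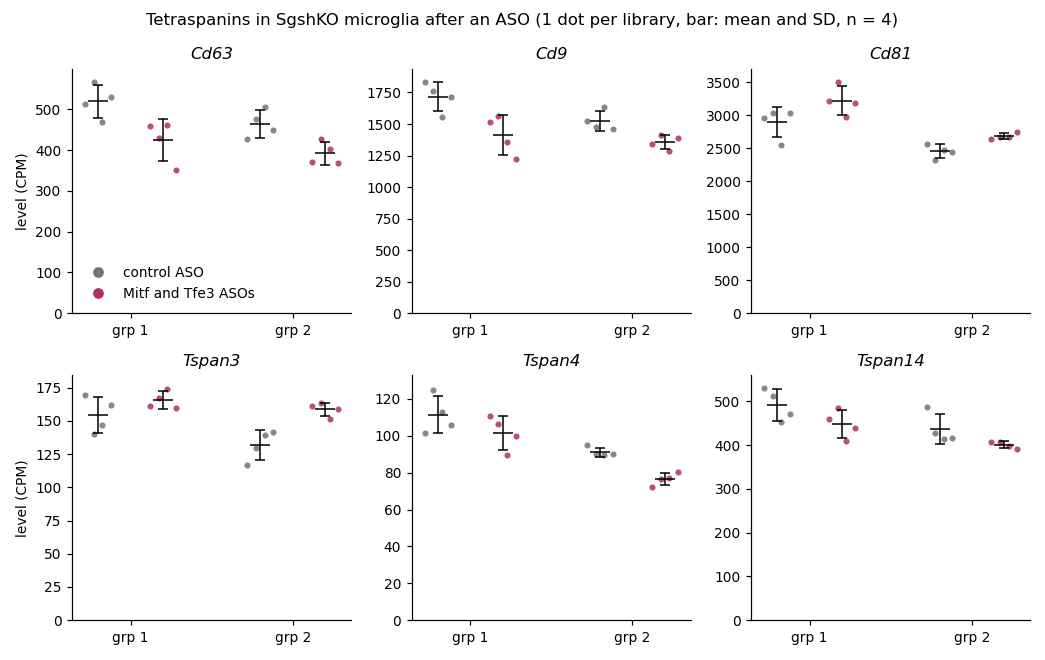
Level in CPM of Cd63, Cd9, Cd81, Tspan3, Tspan4 and Tspan14 in SgshKO microglia given control ASO or Mitf plus Tfe3 ASO, on linear axes from 0, split into grp 1 and grp 2, with 1 point per library and bars for the mean and SD of each 4. Over both grps the Cd63 ranges are 427 to 566 CPM and 351 to 461 CPM, and they overlap.

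Of the other tetraspanins, 9 were tested in the ASO libraries. With Mitf ASO 1 rose and 2 fell, with Tfeb ASO 1 rose, with Tfe3 ASO 1 rose and 1 fell, and with the combination 1 fell, where 11.0%, 0.778%, 2.16% and 9.33% of all genes were called in these 4 comparisons. Tspan7 rose with each of the 3 single ASOs, by 0.44, 0.28 and 0.47 on the log2 scale for Mitf, Tfeb and Tfe3, and Upk1b fell by 0.74 with Mitf ASO (adjusted p = 0.000388). Tspan33 fell by 0.39 with Mitf ASO and by 0.39 with Tfe3 ASO. The gene called with the combination was Tspan9 (-0.38, adjusted p = 0.000616), which is named after its value was seen. Of the partner genes, 28 were tested in WT and 29 in SgshKO. With Mitf ASO 7 rose and 2 fell, with Tfe3 ASO 3 rose, and with the combination 3 rose and 1 fell. The share of all genes called was 11.0%, 2.16% and 9.33% in turn. Tfeb ASO changed 0 of the 28 by edgeR, where 0.778% of all genes were called. Under an unadjusted p of 0.05 were 8 of the 28, beside 14.38% of all genes. DESeq2 called 5 of the 28, and 213 of all 10277 genes. Ptgfrn rose by 0.43 and Lamp1 by 0.52 with Mitf ASO, and Sdc4 fell by 0.46 with the combination.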

How the data were processed

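RNA of sorted microglia was sequenced from polyA-selected libraries as single-end reads, per the labels' protocols. The authors deposited raw read counts per gene for 58 libraries in 3 tables, TPM values for the age series, and a batch-corrected normalised signal for each ASO set, whose exact normalization is not given in the sources used here. The submitters' processing notes name build mm10, STAR 2.5.3a, HOMER 4.11, kallisto 0.44.0, DESeq2 1.36.0 and R 4.2.3, without their roles. Groups were taken from the labels, and the WT ASO column named grp 3 with replicate 4 was matched to its sample by title.

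The raw counts were tested with edgeR 4.0.16 (R 4.3.3; quasi-likelihood F test, TMM factors, and a minimum count of 10 in filterByExpr). P-values were adjusted by Benjamini-Hochberg over all genes tested, with 0.05 as threshold. Age series fits used 6 group means, and ASO fits added the grp number of the titles. SEs came from the F statistic, and CPM used the TMM factors. The edgeR fit was tested on simulated counts for a comparison from each table, and the other fits, searches and rules were not. Alternatives were RLE factors, DESeq2 1.42.0, no filter, each library left out, fits with and without blocks, limma 3.58.1 on log2(TPM + 1), log2(TPM + 0.1) or log2(signal + 1), and 2 chosen after seeing the data (neutrophil-rich libraries left out, a Ddx3y minus Xist covariate). Intervals are at 95%. The members, gene lists and tests were chosen with earlier results of these data known. All 10 members were named in each comparison, up to 6 other tetraspanins and 4 partners by size of change at 8 months, and the 5 genes most like Cd63 and Cd9. Adam10, Lamp1 and Tspan9 were named outside these rules. The ASO tables hold 10277 and 10589 genes, none at 0 in every library, so a marker not listed in them is not shown to be absent from the cells.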

Additional observations from a re-analysis of the deposited data

Results flagged for a closer look

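In 100 pairs of a member and a group of 4 to 10 libraries, 6 held 1 library far from the others by Dixon's criterion at the 95% level, which chance alone meets in about 1 of 20 pairs. In SgshKO at 8 months, Cd63 was at 188 CPM in replicate 5 against 244 to 277 CPM in the other 6 libraries, and Cd9 at 784 CPM in replicate 2 against 1127 to 1333 CPM. Tspan14 was at 433 CPM in SgshKO replicate 4 at 3 weeks, where the other 3 lay between 452 and 454 CPM. With Tfeb ASO, Cd63 was at 243 CPM in replicate 1 against 166 to 173 CPM, and with PBS, Cd9 was at 892 CPM in replicate 3 against 699.5 to 726 CPM. Cd37 was at 381 CPM in SgshKO control ASO replicate 2 of grp 1, with the other 7 control libraries at 314 to 342 CPM.

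The genotype difference was larger at 8 months than at 3 weeks by 0.95 on the log2 scale for Cd63 and by 0.99 for Cd9. These 2 genes lead the set because of their values in this series, so the sizes are a description without a test.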

How the results depend on the processing

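Cd63 and Cd9 in the age series, whose values chose them, are left out of the next 3 sentences. Of 29 tested member results called, 12 were called under every alternative. Over 806 alternative values of these 29, 717 kept their direction and call, 89 kept their direction without the call, and 0 reversed. Of 3214 values for the 115 uncalled results, 60 became calls and 94 changed sign, none of them both. For the ASO sets these counts include the fit with no filter, which equals the main fit there because the filter removed no gene. Counts of members called that moved by over 1.5 times are given next, and after them the ranges without 1 library, whether moved or not. The cause was not tested. Age-series counts include Cd63 and Cd9 as a description. At 3 weeks each of the 3 TPM settings called 4 members against 2, which among the other 8 is 2 (Cd82 and Tspan3) against 0. For the change from 4 to 8 months, DESeq2 and the unfiltered fit each called 1 against 0, and 0 of the other 8. For WT at 8 months against 3 weeks, DESeq2 called 3, unfiltered TPM 0 and the Ddx3y minus Xist covariate 0, against 1, and the covariate turned the Cd9 value from -0.22 to 0.0276. DESeq2 called 2 against 1 for Mitf against Tfe3 ASO and for Tfeb against Tfe3 ASO, where the batch-corrected signal also gave 2. Leaving out 1 library gave 2 to 6 calls at 4 months, 6 to 8 at 8 months, 2 to 3 for the change from 3 weeks to 8 months, 0 to 1 for that from 4 to 8 months, 0 to 2 for WT over age, 6 to 8 for SgshKO over age, 4 to 5 with Mitf ASO, 0 to 1 with Tfeb ASO, 1 to 2 with Tfe3 ASO and for Mitf against Tfe3 ASO, 1 to 3 for Tfeb against Tfe3 ASO and 3 to 5 with the combination. Among the other 8 these age-series ranges were 0 to 4 at 4 months, 4 to 6 at 8 months, 0 to 1 and 0 to 0 for the 2 changes, 0 to 2 in WT and 4 to 6 in SgshKO. In these fits the change of the genotype difference from 4 to 8 months ran from -0.30 to 0.0157 for Cd53 and from -0.29 to 0.0240 for Tspan3, so both changed sign, Cd53 without WT replicate 2 of 4 months and Tspan3 without that library (0.0240) or SgshKO replicate 1 of 4 months (0.0098). The deposited TPM values moved the median log2 difference of all genes at 8 months to -0.14 from 0.02 on counts.

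Replicate numbers were checked as a block. The correlations of same-numbered deviations ran from -0.171 to 0.115 in the age series, where libraries share only a number. In the WT ASO set they ran from -0.0333 to 0.640 and were above 0.1 in 38 of 40 pairs, and the labels do not say what its grp number marks, so whether it pairs the libraries is not settled. In the SgshKO ASO set they ran from 0.259 to 0.746, but from 0.084 to 0.612 once grp was taken out, with 5 of 8 above 0.1. With no replicate block in the WT ASO set, 2 members were called with Mitf ASO against 4, 0 with Tfeb ASO against 1, 1 with Tfe3 ASO against 2, 1 for Mitf against Tfeb ASO against 2, and 0 for Tfeb against Tfe3 ASO against 1. A replicate block in the age series took the Cd81 call at 8 months (adjusted p = 0.11), and in the SgshKO ASO set the Tspan3 call (adjusted p = 0.0562). For the combination, the fit with no grp term called 2 members, grp 1 alone 0 and grp 2 alone 3, against 5. Depth limits the rare genes Tspan2 and Tspan17, for which no fold change is given.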
